A study of Mus musculus with 4 samples.

Results

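Enzymes that make serine, glycine, one-carbon units, asparagine and proline were followed in the chromatin-associated RNA of mouse embryonic stem cells (mESCs) with and without loss of ZBTB21, a DNA-binding protein with zinc fingers and a BTB domain. The 10 genes, Phgdh, Psat1, Psph, Shmt1, Shmt2, Mthfd2, Mthfd1l, Asns, Aldh18a1 and Pycr1, were chosen by symbol from the 36918 genes counted, and all 10 passed the filter on low counts that left 14361 genes. Both groups were mESCs in which endogenous ZBTB21 carries an auxin-inducible degron and GFP at its C-terminus. They also carry a knocked-in gene for OsTIR1, the auxin receptor from rice that the degron needs. The line was derived from selected clones, and how many clones entered this assay is not stated in the sources used here. The untreated group had 2 libraries. The degron group had 2 libraries from cells given doxycycline at 1 μg/ml for 24 h and then, at 500 μM, the auxin indole acetic acid (IAA) for 6 h. Whether the untreated cells received doxycycline or expressed OsTIR1 is not stated. The effects of IAA, of doxycycline, of OsTIR1 expression and of ZBTB21 loss therefore cannot be told apart. All cells grew with leukemia inhibitory factor, CHIR99021 and PD0325901, in medium with added non-essential amino acids, a mixture that holds serine, glycine, asparagine and proline.

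Serine is made from the glycolytic intermediate 3-phosphoglycerate by PHGDH, PSAT1 and PSPH in turn. The SHMT enzymes then split serine into glycine and a one-carbon unit on tetrahydrofolate, which MTHFD2 and MTHFD1L carry to formate inside mitochondria for purine and thymidylate synthesis in the cytosol. ASNS makes asparagine from aspartate and glutamine, and ALDH18A1 and PYCR1 make proline from glutamate. Many of these genes are known targets of ATF4, the transcription factor of the amino acid response, and proliferating cells such as mESCs use the pathway for nucleotides and protein.

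ChAR-seq sequences the RNA that remains with the chromatin pellet, so introns are counted with exons and the values follow transcription more closely than those of total RNA. Total counts ran from 4262382 to 6479842 per library. Values are given as CPM, counts scaled for library size and composition, so each change is relative to the typical gene, whose log2 fold change was set near 0 (median -0.00075 over all tested genes). Of 10 embryonic stem cell markers, 9 were tested, and their summed level was 2545 and 2567 CPM in the untreated and 3189 and 3153 CPM in the degron libraries. Of these 9 markers, 6 were higher and 2 lower in edgeR, Utf1 (-1.02) and Tdgf1 (-0.63), so the markers went both ways. Over all tested genes, 20.3% were higher and 19.8% lower. Under the length-adjusted scaling described below Zfp42 was also lower (-0.29, edgeR adjusted p = 1.23e-05). This gave 6 higher and 3 lower markers, against 16.2% and 11.8% of tested genes. Dppa5a, a marker of the same list, had at most 1 count in a library. Fibroblast markers summed to between 16.5 and 25.1 CPM, mostly through Pdgfrb at 61 to 81 counts and Thy1 at 17 to 33. Neither passed in edgeR (-0.39 and -0.63), though Thy1 was lower under the length-adjusted scaling described below (-0.87). Dcn was at 0 and Col1a1 at 1 to 3 counts. Trophoblast markers summed to between 12.4 and 18.7 CPM. Primitive endoderm markers summed to 312 and 292 CPM in the untreated and 389 and 346 CPM in the degron libraries, mostly through Sparc, which was higher (0.40). Dab2 (-0.65) and Gata6 (-1.23) of that list were lower. Neither passed under the length-adjusted scaling (Dab2 -0.37, edgeR adjusted p = 0.113, Gata6 -1.22, 0.0541), and Sparc stayed higher (0.38). The median of the 5 tested genes of that list was -0.51 under the usual scaling. Foxa2 was at 0 to 2 counts and Sox17 at 1 to 8. The part of these shifts in the results below was not tested, and fewer cells of a type cannot be told apart from less RNA per cell. Zbtb21 itself had 2 and 0 counts in the untreated and 0 and 0 in the degron libraries. It is covered over 99.9% of its length by C2cd2 on the same strand, and its RNA is no check of a degron that acts on the protein.

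The comparison asked how the transcripts of these enzymes differed after ZBTB21 degradation. Of the 10 genes, 8 rose and none fell at an adjusted p of 0.05 (edgeR quasi-likelihood test, Benjamini-Hochberg adjusted over all tested genes). Among all tested genes, 20.3% were higher and 19.8% lower. In all 10 genes both degron libraries lay above both untreated libraries in CPM, which 34.4% of tested genes also showed, while 34.6% showed the reverse. The median log2 fold change of the 10 was 0.50, and their range was 0.11 for Mthfd1l to 0.73 for Mthfd2. DESeq2's Wald test called 7 higher and limma voom 8, and neither called any lower. Over all 14361 tested genes, DESeq2 called 1540 higher and 1456 lower, and limma voom 2884 higher and 2878 lower. As a share of each library, the 10 genes summed to 0.0892% (Wilson 95% limits 0.0866 and 0.0919) and 0.0871% (0.0843 and 0.0899) without treatment. After degradation they summed to 0.120% (0.117 and 0.123) and 0.121% (0.118 and 0.124). These limits cover counting error only.

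**Figure D1:**
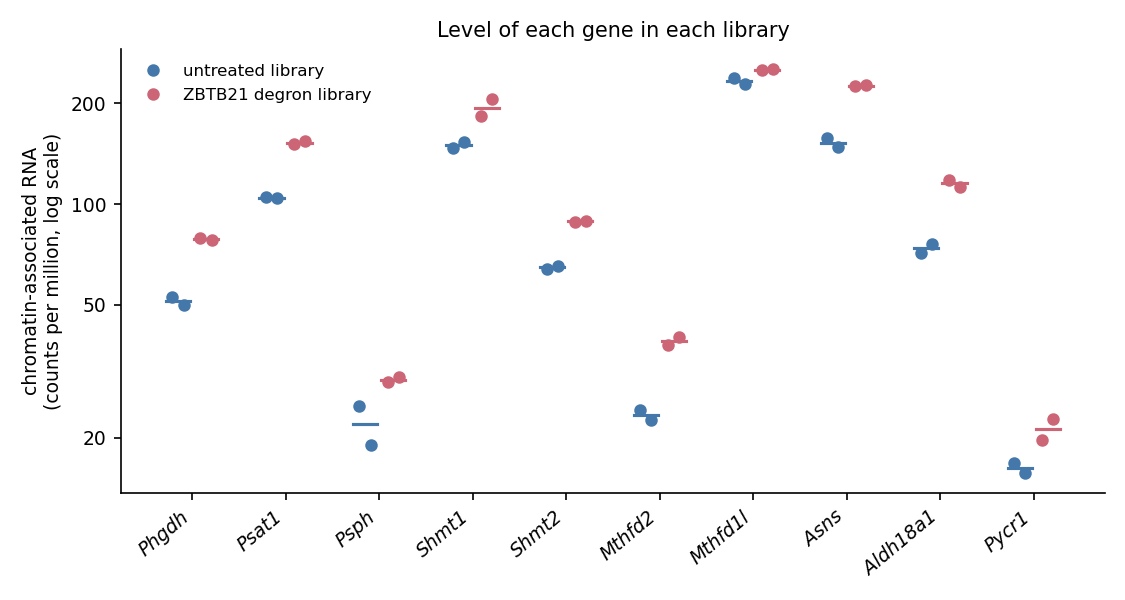
Level of the 10 genes in each library, in CPM on a log scale. Points are single libraries and bars the mean of 2; both degron libraries lie above both untreated ones for every gene, with the smallest gap for Mthfd1l (229 and 238 against 252 and 253 CPM).

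Among the serine synthesis genes, Phgdh (ENSMUSG00000053398, chromosome 3, 98313170 to 98339990, minus strand, mm10), the dehydrogenase of the first step, stood at 52.9 and 49.8 CPM in the untreated and 79.3 and 78.1 CPM in the degron libraries. The replicates lay close together and the groups far apart, and the gene rose by 0.62 ± 0.09 on the log2 scale (SE, edgeR adjusted p = 5.53e-07). Psat1 (ENSMUSG00000024640, chromosome 19, 15904678 to 15947337, minus strand), the aminotransferase of the second step, went from 105 CPM in both untreated libraries to 151 and 154 CPM. Its untreated replicates were nearly equal, and its log2 fold change was 0.54 ± 0.07 (adjusted p = 4.16e-08). Psph (ENSMUSG00000029446, chromosome 5, 129765558 to 129787449, minus strand), the phosphatase of the last step, was less abundant, with 24.8 and 19.1 CPM in the untreated and 29.4 and 30.3 CPM in the degron libraries. Here the untreated replicates differed by more than untreated replicate 1 differed from the degron libraries. The log2 fold change was 0.43 ± 0.14 (adjusted p = 0.0125). Without untreated replicate 2 it was 0.27 and no longer past the threshold (adjusted p = 0.233), without untreated replicate 1 it was 0.65 (0.00311), and DESeq2 did not call Psph (0.133).

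SHMT1 and SHMT2 are the cytosolic and the mainly mitochondrial serine hydroxymethyltransferase. Shmt1 (ENSMUSG00000020534, chromosome 11, 60788104 to 60811718, minus strand) was at 148 and 154 CPM in the untreated and 183 and 206 CPM in the degron libraries. The degron replicates were further apart than the untreated ones but did not reach down to them, and Shmt1 rose by 0.36 ± 0.07 (edgeR adjusted p = 2.29e-05). Shmt2 (ENSMUSG00000025403, chromosome 10, 127517123 to 127522444, minus strand), the shortest of the 10 genes, was at 63.9 and 65.5 CPM against 88.7 and 89.1 CPM and rose by 0.46 ± 0.08 (adjusted p = 2.71e-05). The groups did not overlap, and both replicate pairs lay within 2 CPM of each other. Per kb of gene body, Shmt2 was 2.01 and 1.98 times as abundant as Shmt1 in the untreated and 2.25 and 2.01 times in the degron libraries. The ratio differed little between the groups, but the trend with gene length described below does not cancel in it. Length-adjusted log2 fold changes were 0.21 for Shmt2 and 0.31 for Shmt1, and the difference between them was not tested.

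Of the mitochondrial folate enzymes, 1 passed under the usual scaling and 1 did not. Mthfd2 (ENSMUSG00000005667, chromosome 6, 83305691 to 83325908, minus strand), a dehydrogenase and cyclohydrolase that is low in most adult tissues and high in embryos, was at 24.2 and 22.6 CPM in the untreated and 37.8 and 40.1 CPM in the degron libraries. The groups did not overlap, and the rise of 0.73 ± 0.13 was the largest log2 fold change of the 10 (edgeR adjusted p = 1.06e-05). Mthfd1l (ENSMUSG00000040675, chromosome 10, 3973118 to 4167081, plus strand), which releases formate, was at 238 and 229 CPM against 252 and 253 CPM. Its groups did not overlap, but the difference was small, and its log2 fold change of 0.11 ± 0.06 did not pass (adjusted p = 0.113). It passed with scaling by total counts (0.14, adjusted p = 0.0411) and with no filter on low counts (0.15, 0.0392). Mthfd1l is 193964 bp long, and its value depended on how gene length was handled, as described below.

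Asns (ENSMUSG00000029752, chromosome 6, 7675169 to 7693254, minus strand), asparagine synthetase, was at 157 and 148 CPM in the untreated and 225 and 226 CPM in the degron libraries. The degron replicates were nearly equal and far from the untreated ones, and Asns rose by 0.56 ± 0.06 (edgeR adjusted p = 9.6e-10), the smallest adjusted p among the 10. In human ASNS the promoter is known to hold a C/EBP-ATF response element, a composite site bound by ATF4 with C/EBP partners. Its core letters TGATGNAA were searched on both strands in windows from 250 bases before to 50 bases after each RefSeq start (GRCm38.p6, the assembly of mm10). All 10 genes had a window, and 2 of them, Asns and Pycr1, held the letters, against 4.51% of 27025 genes. The stretches before both starts are shown as a description. A link between these letters and the changes of Asns and Pycr1 was not tested. Capitals mark the match, which begins 23 bases before the RefSeq start of Asns and 103 bases before that of Pycr1, on the strand of the gene in both. The annotated genes begin 45 bp (Asns) and 21 bp (Pycr1) upstream of these RefSeq starts. The match of Asns thus lies inside its annotated gene, and that of Pycr1 lies before its own.
Asns, chr6:7693210-7693459, minus strand: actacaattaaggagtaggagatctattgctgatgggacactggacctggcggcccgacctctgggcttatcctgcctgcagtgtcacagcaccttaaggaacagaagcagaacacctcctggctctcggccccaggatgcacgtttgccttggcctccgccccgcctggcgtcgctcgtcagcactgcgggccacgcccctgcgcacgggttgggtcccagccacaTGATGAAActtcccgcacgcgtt
Pycr1, chr11:120643749-120643998, minus strand: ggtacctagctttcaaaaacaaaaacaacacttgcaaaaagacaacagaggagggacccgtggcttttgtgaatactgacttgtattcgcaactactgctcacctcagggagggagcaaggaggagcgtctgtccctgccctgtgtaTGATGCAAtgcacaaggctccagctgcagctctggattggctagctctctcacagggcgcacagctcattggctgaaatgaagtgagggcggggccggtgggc

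The match was TGATGAAA in Asns and TGATGCAA in Pycr1. The exact letters TGATGCAA were in windows of 1.03% of genes. The windows of the other 8 genes did not hold the letters, which says nothing more than that. The windows of the 10 genes had GC contents from 42.7% (Shmt2) to 66.7% (a second start of Psat1), against a median of 52.7% over all 32851 windows. Atf4 RNA, with 359 and 283 counts in the untreated and 658 and 512 in the degron libraries, rose by 0.50 ± 0.08 (edgeR adjusted p = 3.99e-06). With the length-adjusted scaling described below, the value was 0.29 (adjusted p = 0.00519). ATF4 is controlled largely at translation, which ChAR-seq does not measure.

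Of the proline synthesis genes, Aldh18a1 (ENSMUSG00000025007, chromosome 19, 40550257 to 40588463, minus strand), which makes pyrroline-5-carboxylate from glutamate, was at 71.6 and 76.2 CPM in the untreated and 118 and 112 CPM in the degron libraries. The groups were well separated, and Aldh18a1 rose by 0.65 ± 0.08 (edgeR adjusted p = 1.32e-08). Pycr1 (ENSMUSG00000025140, chromosome 11, 120635712 to 120643769, minus strand), a mitochondrial reductase of the last step, had the lowest CPM of the 10, with 16.8 and 15.7 CPM in the untreated and 19.7 and 22.8 CPM in the degron libraries. The groups did not overlap, but the counts were few (66 to 129 per library) and the log2 fold change of 0.37 ± 0.16 did not pass (adjusted p = 0.0622). It passed without degron replicate 1 (0.49, adjusted p = 0.0375) and with scaling by total counts (0.40, 0.0427). For Pycr1 and Psph the SE was 0.14 or more, and a change of the size seen in Shmt1 could not be resolved at these counts in Pycr1.

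**Figure D2:**
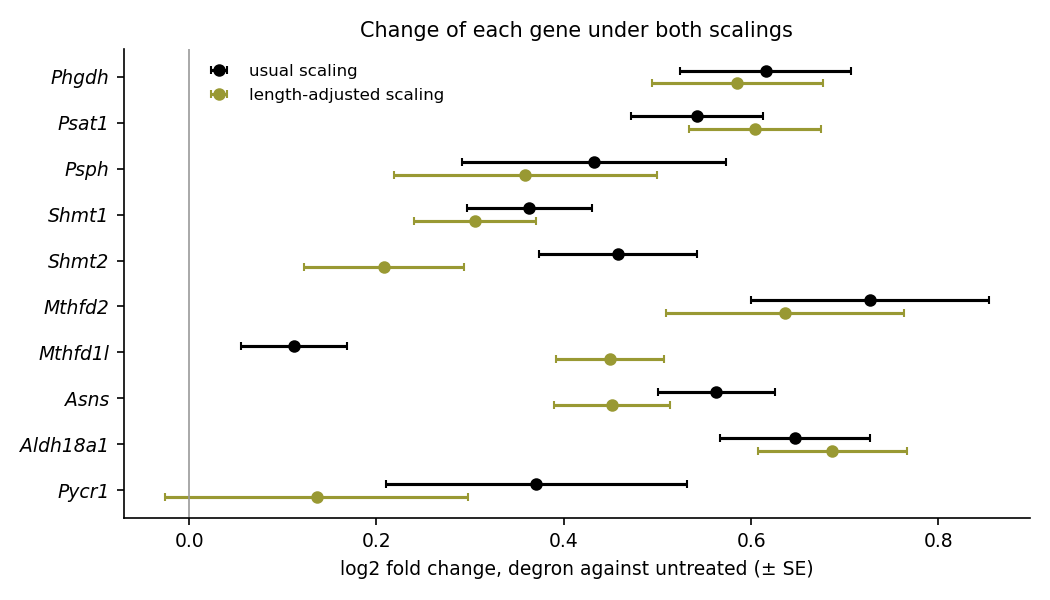
Log2 fold change of the 10 genes, degron against untreated, with the SE of the edgeR fit (2 libraries per group). Black points use the usual scaling and olive points the length-adjusted scaling; Mthfd1l moves from 0.11 to 0.45, Shmt2 from 0.46 to 0.21 and Pycr1 from 0.37 to 0.14, and Mthfd2, Aldh18a1, Phgdh and Psat1 stay above 0.5.

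Gene length went with the change over the whole table. The median log2 fold change was 0.22 in the shortest of 10 equal-sized length bins and -0.37 in the longest, which began at 133273 bp and in which 2.79% of genes were higher and 63.3% lower. Each of the 10 genes lay above the median of its own bin, by least for Pycr1 (0.37 against 0.28) and by most for Aldh18a1 (0.65 against -0.056). Mthfd1l, at 0.11, belongs to the longest bin. Under a scaling that removes the trend with gene length in each library, called length-adjusted, 8 of the 10 genes were again higher and none lower, against 16.2% and 11.8% of tested genes. The median of the 10 was 0.45. Mthfd1l passed with 0.45 ± 0.06 (edgeR adjusted p = 5.3e-09), and Shmt2, a gene of 5322 bp, fell short with 0.21 ± 0.09 (adjusted p = 0.0597). Psph was at 0.36 (adjusted p = 0.0479) and Pycr1 at 0.14 (0.573). Phgdh, Psat1, Shmt1, Mthfd2, Asns and Aldh18a1 passed under both scalings, with length-adjusted values of 0.59, 0.60, 0.31, 0.64, 0.45 and 0.69. Whether the trend arose in the cells or in the libraries was not tested.

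**Figure D3:**
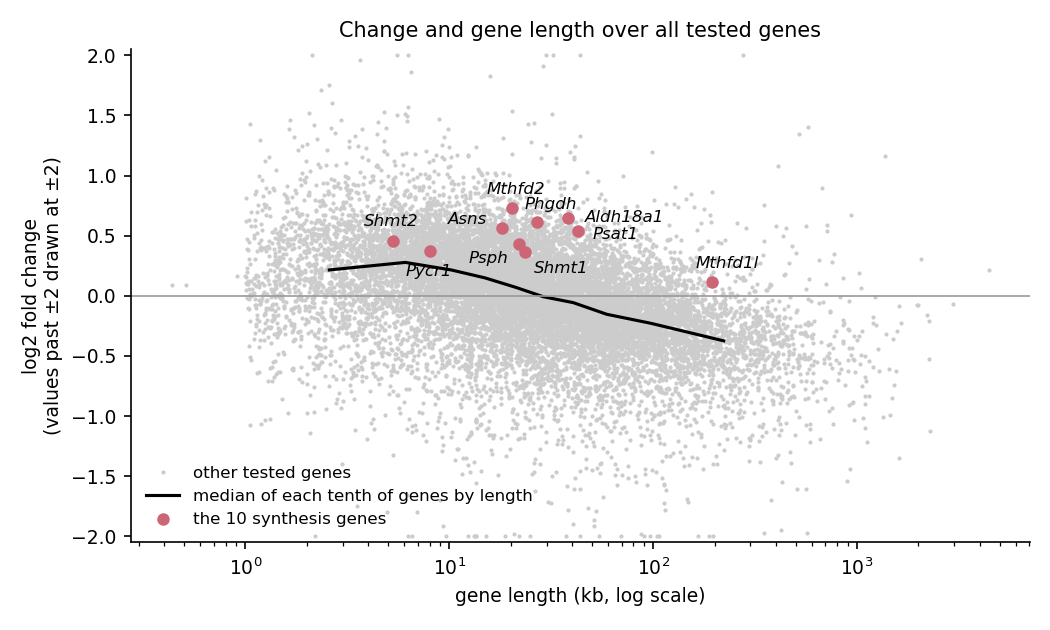
Log2 fold change of all tested genes against gene length in kb on a log scale, with the 10 genes named and values past ±2 drawn at ±2. The black line joins the medians of the 10 length bins, from 0.22 in the shortest to -0.37 in the longest; each named gene lies above it, Pycr1 the nearest.

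Levels of different genes were compared per kb of gene body, counted from 300 bp after the start as in the deposited counts. Shmt2 was highest, with a mean of 12.9 CPM per kb in the untreated libraries, followed by Asns (8.58), Shmt1 (6.46) and Psat1 (2.47), all separated from their neighbours by more than the spread of the replicates. Pycr1 (2.03 to 2.16), Aldh18a1 (1.89 to 2.01) and Phgdh (1.88 to 1.99) were close together, and Mthfd1l, Mthfd2 and Psph followed (1.21, 1.18 and 1.02), and Mthfd2 overlapped in range with both of the others, which did not overlap with each other. In the degron libraries Mthfd2 stood at 1.96 CPM per kb, above Mthfd1l at 1.30 and Psph at 1.38. Per kb of exon instead, Asns was highest (55.8) and Pycr1 lowest (4.13) in the untreated libraries. The annotated gene of Psat1 begins 22278 bp upstream of its nearer RefSeq start and that of Mthfd2 begins 8304 bp upstream, which lowers their level per kb if transcription begins at the RefSeq start. The length bins and the length-adjusted scaling also used the annotated lengths, and lengths from the RefSeq starts were not tried. Mthfd2 is covered over 13.8% of its length by Gm43890 on the same strand, which had 0 counts in every library, and reads in such shared stretches can be lost. Psph, Shmt1 and Shmt2 are covered by opposite-strand genes over 2.07%, 0.779% and 0.601% of their length, and the other 6 by none.

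Counterparts of these enzymes were measured beside them. MTHFD1, the cytosolic folate enzyme with the activities that mitochondria divide between MTHFD2 and MTHFD1L, had 1880 and 1630 counts in the untreated and 2326 and 1850 in the degron libraries. Mthfd1 had a log2 fold change of -0.11 ± 0.05, which did not pass (edgeR adjusted p = 0.0804), and 0.037 after length adjustment. It passed when only genes averaging 50 or more counts were tested (-0.13, adjusted p = 0.0243). Per kb, Mthfd2 was at 0.195 and 0.188 of Mthfd1 in the untreated and at 0.344 and 0.343 in the degron libraries. The scaling of the library cancels in this ratio, but the trend with gene length does not. Mthfd2 spans 20218 bp and Mthfd1 64506 bp, and their length-adjusted values were 0.64 and 0.037. Mthfd1 is 29.6% covered by Gm34868 on the opposite strand, and the difference between the changes of both genes was not tested. Mthfd2l, a paralog of Mthfd2, was scarce, with 23 and 22 counts against 15 and 18 (log2 fold change -0.80 ± 0.34, adjusted p = 0.0544). Leaving out degron replicate 2 brought it past the threshold (-1.13, adjusted p = 0.0375), and leaving out degron replicate 1 gave -0.46 (0.443). It also passed with limma voom (-0.83, 0.0448). Pycr3, a pyrroline-5-carboxylate reductase gene like Pycr1, did not pass (0.44, adjusted p = 0.0718).

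In 6 lists of related genes the changes were mixed. Of 48 tested genes of 58 listed, 11 rose, 6 fell and 31 did not pass, with a median log2 fold change of -0.033. Over all tested genes, 20.3% were higher and 19.8% lower, the shares beside which these counts and those of each list stand. In the folate cycle list, 3 of 16 rose and 1 fell. The genes that rose included Slc19a1 (0.54 ± 0.09), which encodes the reduced folate carrier, and Atic (0.52 ± 0.08), which uses a one-carbon unit in the last steps of purine synthesis. Aldh1l1, which oxidizes formyl-folate, fell (-0.39, edgeR adjusted p = 0.0241) but passed neither after length adjustment (-0.15, 0.481) nor without untreated replicate 1 (0.0638), untreated replicate 2 (0.149) or degron replicate 1 (0.206). The purine and thymidylate genes Gart (0.0014) and Tyms (-0.12) did not pass, though Tyms was lower after length adjustment (-0.26, 0.045). Slc19a1 is 30.7% covered by Col18a1 on the opposite strand.

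Of 4 genes of the glycine cleavage system, which breaks glycine down in mitochondria, Gldc fell by 0.31 ± 0.06 (edgeR adjusted p = 0.000104), from 888 and 812 counts in the untreated to 1032 and 733 in the deeper degron libraries. After length adjustment it was at -0.13 and did not pass (0.106). Gcsh rose (0.39, adjusted p = 0.00689) but was at 0.18 without untreated replicate 2 (0.317), 0.68 without untreated replicate 1 and 0.20 after length adjustment (0.192). Dld (-0.40, adjusted p = 0.0519) and Amt (0.15) did not pass, and Dld passed without degron replicate 1 (-0.53, 0.0438), after length adjustment (-0.49, 0.022), among genes averaging 50 or more counts (0.0312) and with limma voom (0.0497). In the methionine cycle and transsulfuration list, 2 of 9 tested genes rose and 2 fell. Ahcy, which hydrolyses S-adenosylhomocysteine, rose by 0.45 ± 0.07 (adjusted p = 4.89e-06). Ahcyl2 fell by 0.29 ± 0.06, a difference that length adjustment removed (-0.0029, adjusted p = 0.98). Mtrr (0.21, adjusted p = 0.031) rose and Mtr (-0.16, 0.0428), methionine synthase, fell, both close to the threshold. Mtrr lost its call when any 1 of the 4 libraries was left out (adjusted p from 0.069 to 0.134), and Mtr lost its call when untreated replicate 2 (-0.11, 0.337) or either degron library (0.141 and 0.139) was left out.

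Among genes of aspartate, asparagine and glutamine, 2 of 10 tested rose and 1 fell. Gpt2, the mitochondrial alanine aminotransferase, rose by 0.46 ± 0.06 (adjusted p = 6.51e-08). Got1, the cytosolic aspartate aminotransferase, rose (0.20, adjusted p = 0.0328) but did not pass without untreated replicate 2 (0.13, 0.286), without degron replicate 2 (0.18, 0.14) or after length adjustment (0.16, 0.124). Asrgl1, an asparaginase, did not pass (-0.33, adjusted p = 0.0904). Asnsd1 was listed at 0 in every library and is 99.0% covered by other genes on the same strand, so it is not read as silent. In the proline and ornithine list, 2 of 4 tested genes rose. Pepd, which frees proline from dipeptides, rose by 0.31 ± 0.06 (adjusted p = 3.57e-05; length-adjusted 0.58). Prodh, which breaks proline down, rose (0.31, adjusted p = 0.0263) but lost its call when any 1 library was left out (0.068 to 0.0955), and 37.8% of it is covered by Dgcr6 on the opposite strand. Oat and Aldh4a1 were listed at 0 and are wholly covered by genes on the same strand. Of 5 tested genes of serine use, Ptdss2, which makes phosphatidylserine, rose by 0.38 ± 0.07, and Sptlc2 fell (-0.18, adjusted p = 0.0269) but likewise lost its call without any 1 library (0.0763 to 0.151). Srr (-0.12) and Sptlc1 (-0.044) did not pass.

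**Figure D4:**
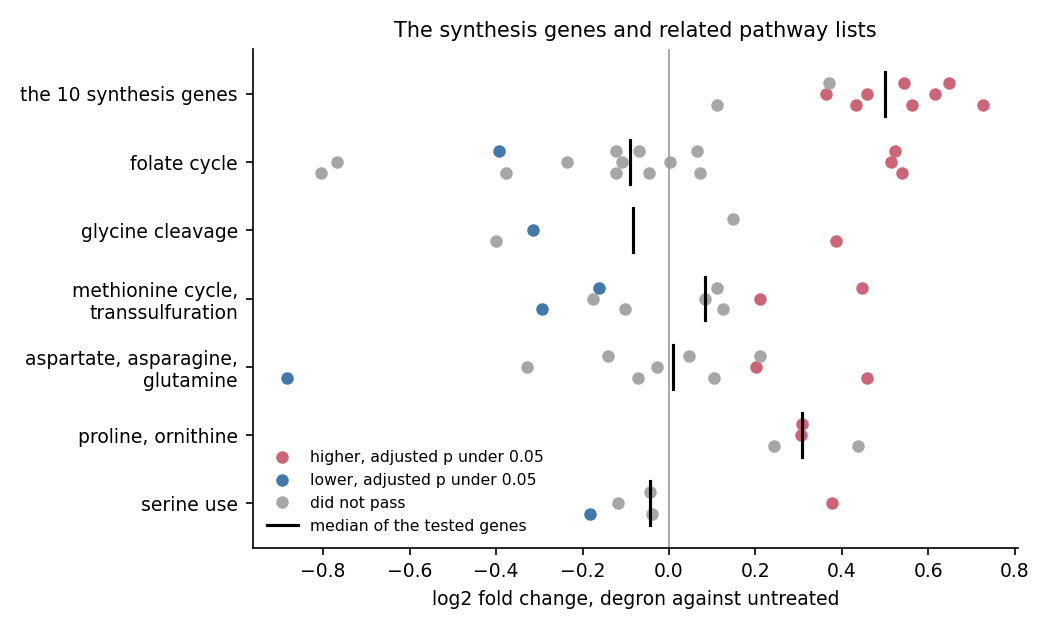
Log2 fold change, degron against untreated, of each tested gene in the list of 10 and in 6 related lists. Each point is 1 gene, colours give the edgeR call and bars the list medians; the 10 genes lie between 0.11 and 0.73, and the related lists spread on both sides of 0 except the 4 tested proline and ornithine genes, which all lie above 0.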

How the data were processed

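Chromatin-associated RNA was sequenced from 4 mESC libraries, 2 untreated and 2 degron. The deposited values are raw counts per gene with no scaling. Per the labels, the authors trimmed reads with cutadapt 2.6. Counting used featureCounts 1.6.3, and the first 300 bp of each gene were left out. The paper names bowtie2 as mapper and the submitters' processing notes list STAR 2.7.6a. Uniquely mapped reads without PCR duplicates were kept. Without the fly spike-in, which was not used here, a shift shared by every gene is invisible. The strand setting is not given in the sources used here, and the annotation release is named (GENCODE vM25) for RNA-seq but not for ChAR-seq. Whether replicates were separate cultures is not stated, so the spread behind each p-value is that of these samples and may be technical. Replicate libraries were not duplicates of each other (chi-square over its degrees of freedom 1.30 untreated, 1.39 degron).

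Of 36918 identifiers, 36770 matched GENCODE M21 (mm10). Genes were kept with filterByExpr (minimum count 10, minimum total 15), scaled with TMM and compared with edgeR 4.0.16 (R 4.3.3) quasi-likelihood F tests of degron against untreated, with a two-sided threshold of 0.05 after Benjamini-Hochberg adjustment. Each SE was derived from the log2 fold change and F. Alternatives were DESeq2 1.42.0 size factors and Wald test, total counts, limma 3.58.1 voom, no filter, a minimum mean of 50 counts, a replicate block, a loess offset on log10 gene length (span 0.3, alone and with the block) and each library left out. The members, the gene lists and the length adjustment were chosen with earlier results of these data known. Named genes are the 10 members, up to 4 genes of each related list with the smallest adjusted p, fixed counterparts (Mthfd1, Mthfd2l, Pycr3, Asnsd1, Gldc, Prodh), Atf4 and Zbtb21. Gart, Tyms, Oat, Aldh4a1 and single cell type markers fall outside that rule, their values being known when they were picked. Pycr3 is listed as Pycrl in M21. Promoter windows came from RefSeq (GRCm38.p6). No set test was run. Some genes that the rule names are not reported here.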

Additional observations from a re-analysis of the deposited data

How the results depend on the processing

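Of the 10 genes, between 7 and 10 were higher and none lower under every alternative run. All 10 were higher only with scaling by total counts, which called 3272 genes higher and 2657 lower of 14361. With no filter 9 were higher, beside 3160 higher and 2399 lower genes of 23551. Asns, Phgdh, Psat1, Shmt1, Mthfd2 and Aldh18a1 passed under all 13. Leaving out 1 library gave 7 to 9 higher members, 2304 to 2505 higher and 2083 to 2367 lower genes in all, and 8 to 10 higher and 3 to 5 lower related genes. DESeq2's Wald test called 1540 genes higher and 1456 lower, with 7 related genes higher and 3 lower. With length-adjusted scaling 1701 genes were lower, and 3 related genes were lower, as with no filter. After length adjustment Mtr turned to 0.013 and Sptlc2 to 0.011, and with the replicate block added to 0.014 and 0.011, none past the threshold. The promoter letters written exactly as TGATGCAA were in 1 member. The labels do not say what a replicate number marks, and deviations of same-numbered libraries had a correlation of 0.024 over genes. A replicate block gave 8 higher members, 3119 higher and 3055 lower genes in all. With it Mthfd2l (-0.79, edgeR adjusted p = 0.0457), Mthfd1 (-0.11, 0.0322) and Dld (-0.40, 0.043) passed. With the block and length adjustment together 9 members were higher, Shmt2 among them (0.21, 0.0382), beside 2526 higher and 1909 lower genes in all. Low counts limit Pycr1, Psph, Pycr3 and Mthfd2l (SE 0.16, 0.14, 0.20 and 0.34), and the lone library left in a group is assumed to vary like the others.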
